A study of Daphnia magna with 56 samples.

Results

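Gene expression was measured in whole female Daphnia magna, a small freshwater crustacean, after 8 days of gamma irradiation at 40 mGy/h, and set against unirradiated animals of the same day. The comparison was made by the label of dose rate and day, which gave 4 libraries at 40 mGy/h and 4 libraries at 0 mGy/h, 8 of the 56 libraries in the series. Both groups carried the label WT, were described as juveniles 8 days old, and had been kept in M7 medium. The animals entered exposure as neonates, so age and exposure time were the same length. The series also holds day 8 groups at 0.4, 1, 4, 10 and 100 mGy/h and the same 7 dose rates on day 4, with 4 libraries each. The number of animals in a library and the Daphnia clone were not given in the sources used here. Nothing in the labels says that the replicates came from separate cultures, so the p-values measure the spread between these libraries, which may be technical.

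Gamma rays ionise molecules along their path, break DNA directly, and generate reactive oxygen species from water. Cells answer with DNA repair, arrest of the cell cycle and antioxidant enzymes, and dividing tissues such as the germ line are among the sensitive ones. Daphnia females moult repeatedly as they grow and reproduce by parthenogenesis. RNA of whole animals pools all tissues, so fewer cells of a type and less RNA per cell cannot be told apart. The entries counted are RefSeq model transcript records, called transcripts here, and the tables used carry no description of what they encode. Symbols below are LOC numbers from a RefSeq annotation of assembly ASM2063170v1.1, matched without the version number for 14015 of the 23570 records. No role can therefore be given for any of them, and the tissue label could not be checked against markers.

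Library totals ran from 14269526 to 14986499 counts at 40 mGy/h and from 14053882 to 14605939 counts at 0 mGy/h. Between 10463 and 10558 transcripts were detected at 40 mGy/h and between 10507 and 10676 at 0 mGy/h. Levels are given as CPM, a transcript's count as a share of its library's total after TMM scaling, in the usual unit of edgeR. After the filter on low counts 9367 transcripts were tested with edgeR's quasi-likelihood test in a fit of all 28 libraries of the day, and a transcript was called when its Benjamini-Hochberg adjusted p was under 0.05.

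A single library at 40 mGy/h stood apart from its group. Replicate 2 at 40 mGy/h had a first principal component score of 51.7, while replicates 1, 3 and 4 had scores of -30.5, -32.3 and -49.2. This component held 26.6% of the variance among the 28 libraries. Across transcripts, the log2 CPM of replicate 2 correlated with its group mates at r between 0.894 and 0.919, and with the controls at r between 0.925 and 0.945. Replicates 1 and 4 correlated with each other at r = 0.973. Of 7797 transcripts averaging 50 or more counts in the 8 libraries, replicate 2 lay at least 2-fold outside all 3 group mates for 699. The other 3 libraries at 40 mGy/h did so for 86 to 129 transcripts and the controls for 39 to 215. Replicate 3 at 10 mGy/h came next among the 28 libraries, with 445. The 7797 were chosen by counts in the 40 mGy/h and control libraries alone, replicate 2 included. Transcripts high only in a library of another dose rate could be missing from them. The counts are therefore not directly comparable across dose rates. How far replicate 2 shaped the results below was not tested beyond leaving it out.

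**Figure D1:**
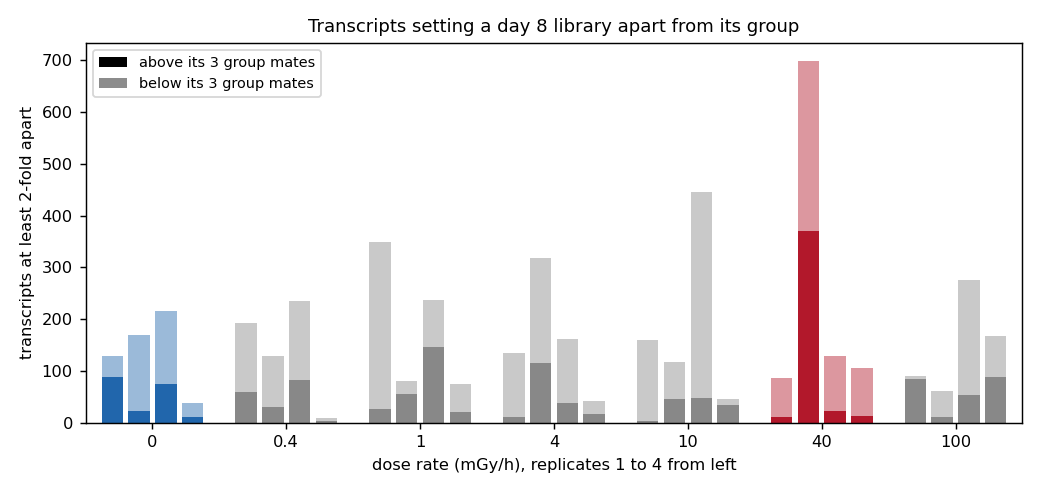
For each of the 28 day 8 libraries, the bar counts transcripts whose log2 CPM lay at least 1 unit above (dark) or below (pale) all 3 other libraries of its group; red is 40 mGy/h, blue is 0 mGy/h and grey the other dose rates. Replicate 2 at 40 mGy/h has the tallest bar, with 370 transcripts above and 329 below its group mates. Transcripts were chosen by counts in the red and blue groups alone, so the grey bars are not directly comparable.

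Replicate 2 nearly lacked some transcripts that were abundant in every other library of the comparison. The 5 in which it lay farthest below its group mates are given as examples, chosen after their values were seen. XM_032922485.1 (LOC116917111) had 3881, 6.52, 3857 and 3371 CPM in replicates 1 to 4 at 40 mGy/h, against 1804, 1082, 1645 and 2121 CPM in the controls. XM_032942646.1 (LOC116935319) had 2097, 5.77, 2180 and 2273 CPM at 40 mGy/h, against 759, 488, 1068 and 1263 CPM in the controls. In all 5 examples, the other 3 libraries at 40 mGy/h lay above every control while replicate 2 was nearly without the transcript. XM_032941652.1 (LOC116934015) had 376.5, 0.303, 345 and 438 CPM at 40 mGy/h, against 168, 122, 223 and 255 CPM in the controls. XM_032921730.1 had 2672, 6.07, 2168 and 3032 CPM at 40 mGy/h, against 1953, 1648, 1743 and 2096 CPM in the controls. XM_032920694.1 (LOC116915534) had 622, 1.37, 509 and 723 CPM at 40 mGy/h, against 328, 275, 364 and 398 CPM in the controls. Of the 329 transcripts at least 2-fold below the group mates, replicate 2 was also below all 4 controls for 294. The share of all 7797 transcripts with replicate 2 below every control is not given here.

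Replicate 2 was the high library for 370 transcripts, with the 5 farthest above again chosen after their values were seen. XM_032928506.1 had 8.64, 591, 5.88 and 9.81 CPM in replicates 1 to 4 at 40 mGy/h, against 20.4, 13.1, 349 and 11.8 CPM in the controls. XM_032920643.1 (LOC116915486) had 14.9, 574, 11.2 and 2.37 CPM at 40 mGy/h, against 64.7, 42.8, 103 and 47.1 CPM in the controls. Control replicate 3 was the highest control for both. Control replicate 3 lay at least 2-fold above the other 3 controls for 58 of the 370, and for 74 of all 7797 transcripts examined. XM_032927168.1 (LOC116920974), XM_032940520.1 (LOC116932694) and XM_032926564.1 (LOC116920344) completed the 5 farthest above, with 28.5, 27.5 and 30.4 CPM in replicate 2 and at most 0.524 CPM in its group mates. Control replicate 3 had 21.8, 20.5 and 7.45 CPM of these, and the other controls at most 0.809 CPM.

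The spread within the exposed group was smaller without that library. The biological coefficient of variation was 0.372 among the 4 libraries at 40 mGy/h and 0.291 among the 4 controls. It was 0.239 at 40 mGy/h without replicate 2, and 0.392 to 0.409 without 1 of the others. First component scores averaged -15.1 ± 45.3 in exposed libraries and -10.6 ± 16.7 in controls (SD, n = 4 each), a difference within the spread of the libraries (exact permutation test, 2-sided, p = 0.8286, with 0.0286 the smallest possible).

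After 8 days at 40 mGy/h, 3 transcripts were higher than in unirradiated animals and none was called lower by edgeR. These 3 are 0.032% of the 9367 tested (edgeR, adjusted p under 0.05), and without replicate 2 at 40 mGy/h 1 was called. Unadjusted p-values under 0.05 numbered 463, or 4.94% of the tests, where 468 would be expected by chance. They numbered 584 of 9418 tested without replicate 2 at 40 mGy/h and 549 of 8193 with DESeq2. Of 9367 tested, they numbered 709 with surrogate variables and 933 with limma with sample weights. DESeq2 called 31 transcripts (26 higher, 5 lower), limma with sample weights 21 (15 higher, 6 lower) and edgeR with surrogate variables 5 (4 higher, 1 lower), each list holding the 3 above.

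XM_032940429.1 (LOC116932654) had 37.4, 36.6, 38.3 and 38.2 CPM in replicates 1 to 4 at 40 mGy/h, against 10.99, 13.4, 15.03 and 12.9 CPM in the controls. All exposed libraries, replicate 2 included, lay within a narrow band far above the controls. Its log2 fold change was 1.52 (SE 0.10, edgeR adjusted p = 7.99e-10), and it averaged 37.6 ± 0.818 CPM in exposed libraries and 13.1 ± 1.66 CPM in controls (SD, n = 4 each). It was called in every alternative fit run, and without replicate 2 at 40 mGy/h its log2 fold change was 1.53 (edgeR adjusted p = 5.02e-09).

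XM_032941777.1, which matched no symbol, had 29.9, 26.6, 25.1 and 28.5 CPM at 40 mGy/h, against 14.5, 18.2, 12.4 and 15.9 CPM in the controls. The groups did not overlap. It rose by 0.85 on the log2 scale (SE 0.14, edgeR adjusted p = 0.0143), a 1.80-fold difference of the means. Without replicate 2 at 40 mGy/h the log2 fold change was 0.86 and the call was lost (edgeR adjusted p = 0.0508). It was also lost when the fit held just these 2 groups (edgeR adjusted p = 0.436).

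XM_032942389.1, also without a symbol, had 50.5, 71.5, 68.8 and 55.6 CPM at 40 mGy/h, against 35.3, 32.4, 27.1 and 37.9 CPM in the controls. Here the exposed libraries were more spread, and replicate 2 was the highest. The log2 fold change was 0.89 (SE 0.15, edgeR adjusted p = 0.0143). It was 0.81 and not called without replicate 2 at 40 mGy/h (edgeR adjusted p = 0.125), nor with only the 2 groups in the fit (edgeR adjusted p = 0.436), nor with the replicate number as a block (edgeR adjusted p = 0.0582).

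The 3 transcripts differed in how the other dose rates of the day compared. The level of XM_032940429.1 had group means of 12.6 to 14.98 CPM at 0.4, 1 and 4 mGy/h. The means of the 10, 40 and 100 mGy/h groups were 21.2 ± 0.633, 37.6 ± 0.818 and 57.0 ± 4.07 CPM in that order (SD, n = 4 each). It was higher at 40 than at 10 mGy/h by a log2 difference of 0.83 (SE 0.09, edgeR adjusted p = 8.02e-05) and lower at 40 than at 100 mGy/h by -0.60 (SE 0.09, edgeR adjusted p = 0.0148). The level of XM_032941777.1 had group means of 15.1 to 17.7 CPM from 0 up to 10 mGy/h, then 27.5 ± 2.10 CPM for the 40 mGy/h group and 27.7 ± 4.45 CPM for the 100 mGy/h group (SD, n = 4 each). Its log2 difference between 40 and 100 mGy/h was -0.01, with a 95% interval from -0.30 to 0.28. Between 40 and 10 mGy/h it was 0.65, which was not called over all transcripts (edgeR adjusted p = 0.214). For XM_032942389.1 the control mean was the low one, at 33.2 CPM, and the means of the 0.4, 1, 4, 10, 40 and 100 mGy/h groups were 62.5, 59.6, 54.6, 48.7, 61.6 and 62.2 CPM in that order. The log2 difference between 40 and 0.4 mGy/h was -0.02, with a 95% interval from -0.33 to 0.29. By group means, the first transcript was higher at each dose rate from 10 mGy/h up, the second stood higher at 40 and 100 mGy/h, and the third stood higher in all exposed groups than in controls.

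**Figure D2:**
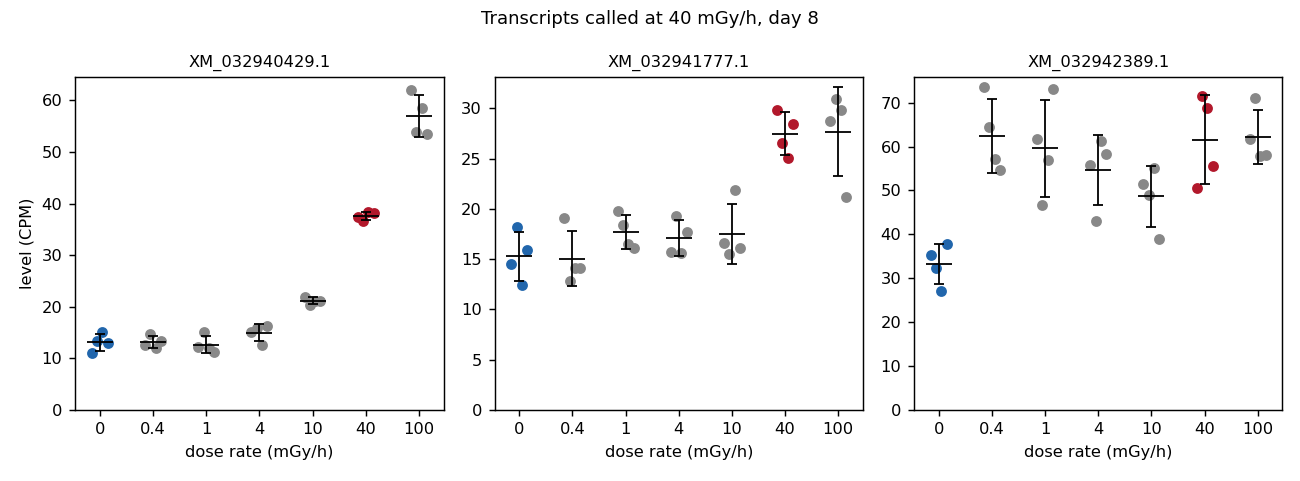
Level in CPM of the 3 transcripts called at 40 mGy/h on day 8, at each dose rate of that day; points are libraries, with the mean as a dash and the SD as bars (n = 4), red for 40 mGy/h and blue for 0 mGy/h. XM_032940429.1 averages 37.6 CPM in the 40 mGy/h group and 13.1 CPM in the controls, and XM_032942389.1 has its lowest mean in the controls.

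The 40 mGy/h libraries were also compared with each other exposed group, in comparisons that share the 40 mGy/h libraries. Against 4 mGy/h and against 10 mGy/h a single transcript was called each time (0.0107% of the tested), and it was XM_032940429.1, higher at 40 mGy/h. Against 100 mGy/h it was again the only call (0.0107%), lower at 40 mGy/h. Against 0.4 mGy/h edgeR called 15 transcripts (0.16%), 14 of them higher at 40 mGy/h, and against 1 mGy/h it called 22 (0.235%), with 7 higher and 15 lower. Some of these counts changed without replicate 2 at 40 mGy/h, the only library left out of these comparisons. Without it, of 9418 transcripts tested, edgeR called 36 against 0.4 mGy/h, 409 against 1 mGy/h (192 higher, 217 lower) and 1 each against 4 and 10 mGy/h. Against 100 mGy/h it called 0 of the 9418, with a smallest adjusted p of 0.0850. In that comparison 1453 had an unadjusted p under 0.05, where 836 of 9367 did with all libraries.

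Beyond the 3 calls, the largest differences without overlap between the groups were collected. The 4 exposed and 4 control libraries did not overlap for 299 transcripts (3.19% of those tested), 144 higher and 155 lower at 40 mGy/h. By chance, 4 against 4 libraries separate in 2 of 70 arrangements, a share of 0.0286, so the 299 are near that share. Lack of overlap therefore served to choose transcripts and is no result in itself. The choice compared 40 with 0 mGy/h alone, so other exposed groups could differ from controls as much. Without replicate 2 at 40 mGy/h, 1050 of the same 9367 transcripts did not overlap. That comparison held 3 against 4 libraries, which separate by chance more often than 4 against 4. How much of the larger count comes from this was not tested. Of the 299, 91 higher and 85 lower also averaged 50 or more counts and had an unadjusted p under 0.05. Of these the 10 largest differences in each direction were named, and besides XM_032940429.1 and XM_032942389.1 none was called by edgeR in the fit of all 28 libraries. DESeq2 also called XM_032935567.1, XM_032939826.1, XM_032927701.1, XM_032939783.1, XM_032931785.1, XM_032923570.1 and XM_032923044.1, with adjusted p from 0.00263 to 0.0499.

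XM_032925613.1 (LOC116919594) had the largest log2 fold change of these, 1.58 (SE 0.54, edgeR adjusted p = 0.770). Its levels were 20.2, 56.6, 37.5 and 28.3 CPM at 40 mGy/h, against 10.1, 14.998, 7.196 and 15.4 CPM in the controls, a wide spread among the exposed libraries. Replicate 2 was the highest of them, and the log2 fold change was 1.26 without it. XM_032935567.1 (LOC116928479) had 23.8, 19.4, 24.0 and 18.6 CPM at 40 mGy/h, against 7.22, 12.5, 9.36 and 12.6 CPM in the controls, which gave 1.04 on the log2 scale (SE 0.29, edgeR adjusted p = 0.322). XM_032927701.1 (LOC116921413) had 158, 149, 209 and 168 CPM at 40 mGy/h, against 52.4, 108, 73.6 and 124 CPM in the controls, which gave 0.93 on the log2 scale (SE 0.26, edgeR adjusted p = 0.322). The controls of this last transcript varied more than the exposed libraries. XM_032931785.1 (LOC116925154) had 78.9, 109, 93.2 and 78.4 CPM at 40 mGy/h, against 40.1, 50.7, 41.8 and 64.7 CPM in the controls. This gave 0.87 on the log2 scale (SE 0.20, edgeR adjusted p = 0.214). In the 0.4 mGy/h group XM_032925613.1 averaged 81.4 CPM and XM_032935567.1 averaged 26.8 CPM. Both exceeded their 40 mGy/h means, 35.6 and 21.5 CPM. XM_032931785.1 averaged 84.3 CPM in that group, near its 40 mGy/h mean of 89.9 CPM. XM_032927701.1 differed, since its mean there was 85.7 CPM, near the control mean of 89.6 CPM.

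XM_032939826.1 (LOC116932096) was a low transcript with even exposed values, 7.07, 6.15, 7.54 and 6.56 CPM at 40 mGy/h, against 4.45, 3.01, 4.71 and 2.05 CPM in the controls. DESeq2 (adjusted p = 0.0193) and limma with sample weights (adjusted p = 0.0242) called its log2 fold change of 0.94, which edgeR did not (adjusted p = 0.266). XM_032922066.1 (LOC116916733) had 8.18, 12.0, 9.20 and 10.4 CPM at 40 mGy/h, against 3.24, 7.46, 4.58 and 6.68 CPM in the controls. The 0.4 mGy/h group averaged 10.8 CPM of XM_032922066.1, above its 40 mGy/h mean of 9.93 CPM. XM_032939826.1 averaged 3.56 CPM in that group, below its 40 mGy/h mean of 6.83 CPM. XM_032933477.1 had 14.5, 10.8, 15.9 and 25.0 CPM at 40 mGy/h, against 8.70, 8.90, 10.1 and 7.21 CPM in the controls. The log2 fold change of XM_032933477.1 was 0.92 on day 8 (SE 0.36, edgeR adjusted p = 0.920). On day 4 it was 1.02 and called (SE 0.18, edgeR adjusted p = 0.00953). At 1 mGy/h on day 8 XM_032933477.1 averaged 4.18 CPM, under the control mean of 8.73 CPM. That record shares the symbol LOC116926536 with XM_032933480.1, which had 255, 230, 287 and 469 CPM at 40 mGy/h, against 153, 186, 246 and 194 CPM in the controls. Both records were highest in replicate 4 at 40 mGy/h, and reads may have been split between them, so their separate levels are uncertain.

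The 10 differences toward lower levels had log2 fold changes from -1.29 to -0.45. XM_032933509.1 (LOC116926562) had 4.65, 6.90, 4.70 and 5.21 CPM at 40 mGy/h, against 16.8, 13.0, 14.4 and 8.34 CPM in the controls, which gave -1.29 on the log2 scale (SE 0.43, edgeR adjusted p = 0.737). XM_032934257.1 (LOC116927224) had 4.12, 7.66, 4.91 and 6.23 CPM at 40 mGy/h, against 9.24, 11.9, 8.79 and 13.3 CPM in the controls, which gave -0.92 on the log2 scale (SE 0.25, edgeR adjusted p = 0.322). In both, the highest exposed library lay not far under the lowest control. By day 8 group means, XM_032933509.1 had 5.37 to 10.2 CPM in the exposed groups and 13.1 CPM in controls. XM_032934257.1 averaged 10.8 to 12.8 CPM from 0 to 10 mGy/h, and 5.73 and 4.19 CPM at 40 and 100 mGy/h. XM_032923570.1 (LOC116917942) varied little within groups, with 14.3, 13.7, 15.6 and 16.6 CPM at 40 mGy/h, against 21.0, 21.0, 19.5 and 20.8 CPM in the controls. Its log2 fold change of -0.45 (SE 0.09) missed edgeR's threshold (adjusted p = 0.0979). The threshold was passed in DESeq2 (adjusted p = 0.00263), limma with sample weights (adjusted p = 0.0154) and edgeR with surrogate variables (adjusted p = 0.0387). All exposed groups of day 8 had lower means of this transcript, 14.2 to 17.5 CPM, than the controls, 20.5 CPM.

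XM_032923044.1, an abundant transcript, had 224, 200.7, 175 and 218 CPM at 40 mGy/h, against 354, 345, 240.0 and 281 CPM in the controls. XM_032923262.1 (LOC116917686) had 716, 589, 777 and 759 CPM at 40 mGy/h, against 1129, 1186, 867 and 780 CPM in the controls. In the second of these the highest exposed and the lowest control library nearly touched. XM_032933096.1 (LOC116926266) was again even among the exposed libraries, with 9.30, 9.63, 9.33 and 9.74 CPM at 40 mGy/h, against 14.4, 12.0, 15.3 and 15.3 CPM in the controls. The others, XM_032939818.1, XM_032926838.1 (LOC116920737), XM_032931328.1 and XM_032937872.1 (LOC116930464), had log2 fold changes from -0.64 to -0.48 with group means of 3.35 to 7.98 CPM in exposed libraries and 4.98 to 11.96 CPM in controls. None of the 10 was called by edgeR without surrogate variables.

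**Figure D3:**
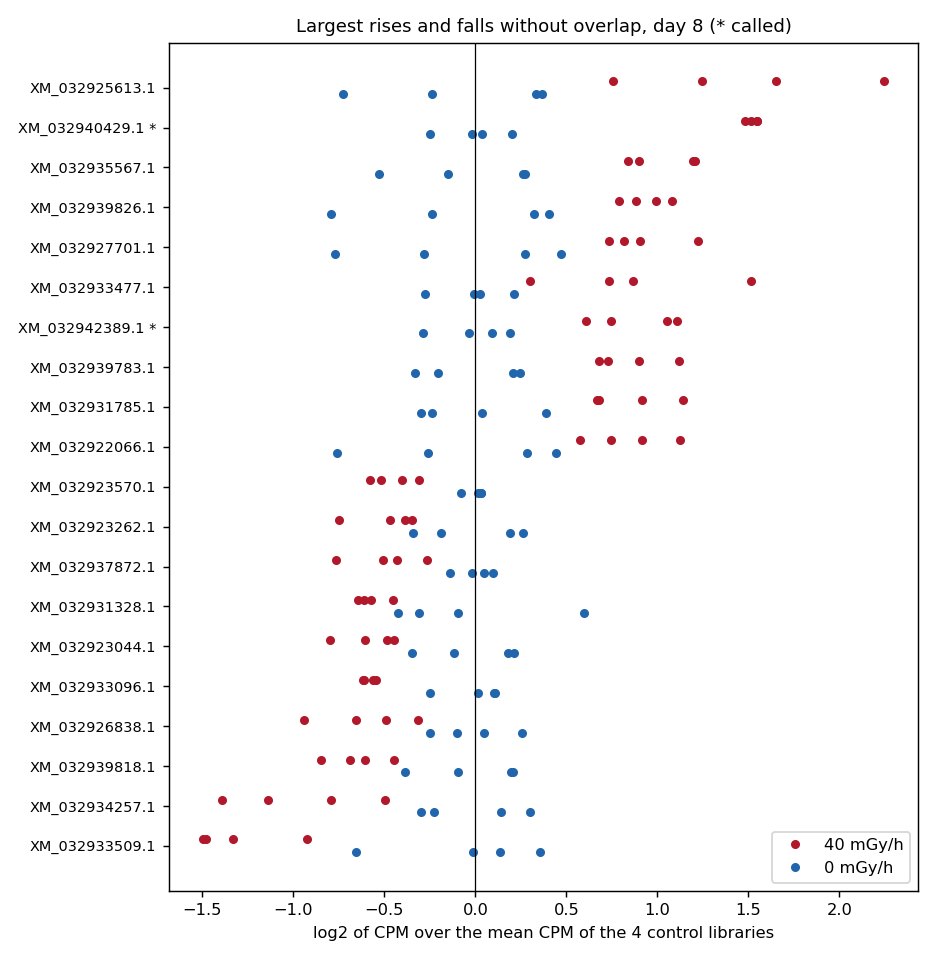
Each row is one of the 20 transcripts with the largest differences and no overlap; points are libraries on a log2 scale relative to the mean of the 4 controls, red for 40 mGy/h and blue for 0 mGy/h. The asterisks mark XM_032940429.1 and XM_032942389.1, which were called; XM_032940429.1 has its 4 exposed libraries within the narrowest band among the rises.

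A fitted change of at least 2-fold was found for 117 of the 9367 transcripts tested, of which 9 had libraries that did not overlap. Some of the 9 averaged few counts over the 8 libraries, with 4.625 the lowest average, so their fold changes are uncertain. Without replicate 2 at 40 mGy/h, 335 transcripts reached 2-fold, 120 higher and 215 lower. Libraries did not overlap for 96 of these 335. With a library left out, groups separate by chance more often, so the 9 and the 96 are not directly comparable. Over all transcripts, at any fold change, 299 did not overlap with all 8 libraries and 1050 did not without replicate 2 at 40 mGy/h. EdgeR called 1 transcript in the fit without that library. The precision of the comparison varied with level. The 95% interval of the fold change lay within 2-fold in both directions for 80.5% of the tested transcripts, and for 66.4% of the 3122 transcripts with the fewest counts.

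**Figure D4:**
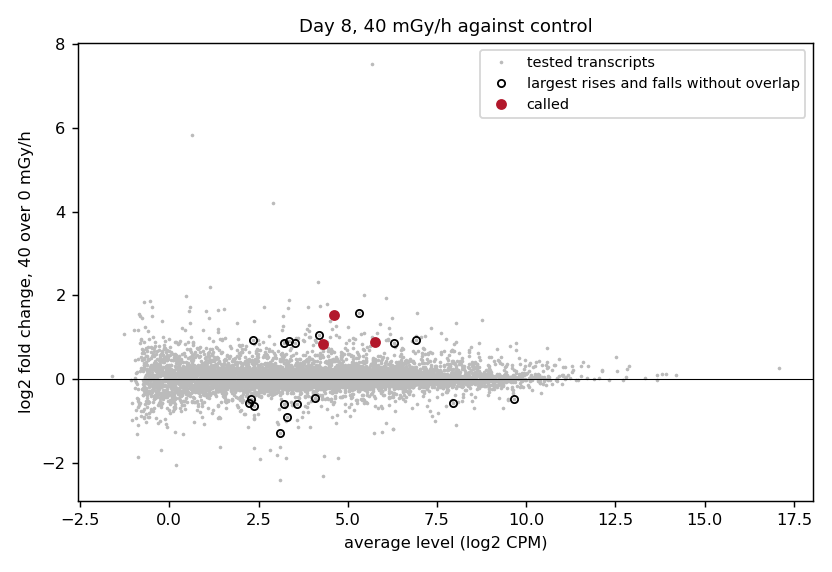
Log2 fold change at 40 over 0 mGy/h on day 8 against average level in log2 CPM, for the 9367 transcripts tested; red points are the 3 called, open circles the 20 largest differences without overlap. Of the 117 transcripts past 2-fold in either direction, 9 have groups that do not overlap, some of them at very low counts.

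None of the 5 most abundant transcripts was called by edgeR, DESeq2 or limma with sample weights. XM_032923507.1 took 9.81% to 18.6% of all counts in the libraries at 40 mGy/h and 10.3% to 13.3% in the controls. Its highest share was that of replicate 2 at 40 mGy/h. XM_032929158.1 had 27858, 9038, 27135 and 30680 CPM at 40 mGy/h, against 24967, 17945, 21170 and 24763 CPM in the controls. XM_032935357.1 and XM_032934435.1 (LOC116927135) were likewise lowest in replicate 2, with 5988 and 8085 CPM, while the controls had at least 14205 and 15304 CPM. XM_032921847.1 (LOC116916592), the fifth in abundance, averaged 14090 ± 3743 CPM in exposed libraries and 12889 ± 2211 CPM in controls (SD, n = 4 each). EdgeR's unadjusted p-values for these 5 were between 0.310 and 0.979.

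Day 4 held the same dose rate in other libraries with their own controls. There edgeR called 27 of 9369 transcripts at 40 mGy/h against 0 mGy/h (0.288%), 25 of them higher. All 27 were tested on day 8. Of the 25 that rose on day 4, 21 had a positive log2 fold change on day 8, where 52.0% of all tested transcripts did. For 14 of the 25, all 4 exposed libraries of day 8 lay above all 4 controls, compared with 1.54% of all tested. An unadjusted p under 0.05 in the same direction was found for 17 of the 25, compared with 2.88% of all tested. Only XM_032940429.1 and XM_032941777.1 were called on both days. The median log2 fold change of the 25 was 0.67 on day 4 and 0.51 on day 8, beside 0.01 over all transcripts tested on day 8. Without replicate 2 at 40 mGy/h on day 8, 21 of the 25 were positive, 16 had an unadjusted p under 0.05 and the median was 0.48. Neither of the 2 transcripts that fell on day 4 had a negative log2 fold change on day 8.

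**Figure D5:**
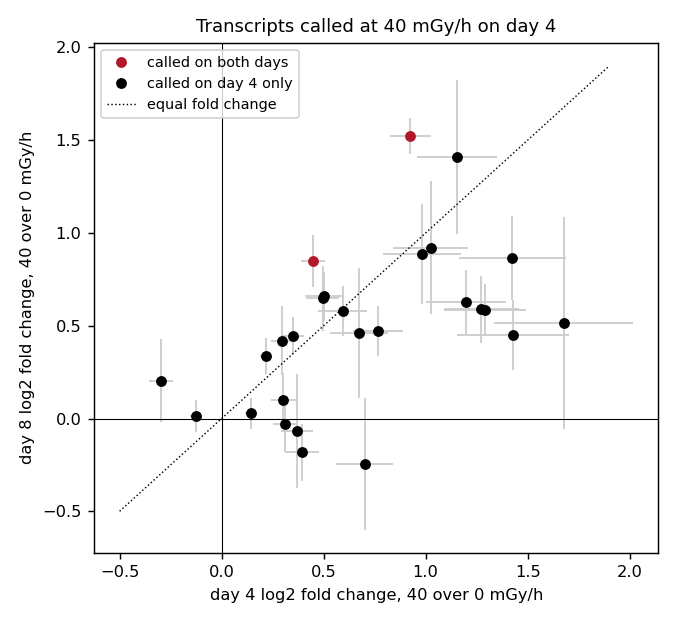
Log2 fold change at 40 over 0 mGy/h on day 4 (horizontal) and day 8 (vertical) for the 27 transcripts called on day 4, with standard errors as bars and a dotted line of equal fold change. Red points are XM_032940429.1 and XM_032941777.1, called on both days; 21 of the 25 day 4 rises lie above 0 on day 8.

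Levels on the earlier day showed how the called transcripts compared. XM_032940429.1 had 26.7, 25.3, 27.0 and 27.8 CPM at 40 mGy/h on day 4, against 12.5, 16.3, 13.4 and 14.03 CPM in the day 4 controls. XM_032941777.1 had 30.4, 28.3, 30.2 and 27.2 CPM at 40 mGy/h on day 4, against 20.5, 22.4, 21.7 and 20.5 CPM in the day 4 controls. Neither overlapped, and the log2 fold changes were 0.93 (SE 0.10) and 0.45 (SE 0.06) on day 4 (edgeR adjusted p = 3.41e-05 and 0.000288). XM_032942389.1 had 22.7, 22.1, 25.7 and 18.6 CPM at 40 mGy/h on day 4, against 13.7, 17.9, 16.9 and 19.6 CPM in the controls. In that case the groups overlapped, and the difference of 0.38 on the log2 scale missed the threshold (edgeR adjusted p = 0.505).

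Of the 4 transcripts with the smallest day 4 p, the other two were XM_032937846.1 (LOC116930434) and XM_032939781.1 (LOC116932061). XM_032937846.1 had 122, 123, 127 and 111 CPM at 40 mGy/h on day 8, against 102, 100.7, 87.1 and 92.3 CPM in the controls, which gave 0.34 on the log2 scale (SE 0.10, edgeR adjusted p = 0.375). XM_032939781.1 had 54.1, 72.7, 49.4 and 64.4 CPM at 40 mGy/h on day 8, against 37.5, 34.1, 41.3 and 47.1 CPM in the controls, which gave 0.59 on the log2 scale (SE 0.18, edgeR adjusted p = 0.502). Neither overlapped on day 8. XM_032937846.1 was called by edgeR with surrogate variables (adjusted p = 0.0459).

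LOC116932061 and LOC116932065 are next to each other among the protein-coding genes of linkage group 10. For XM_032939781.1 and XM_032939783.1, the 40 mGy/h libraries lay above the controls on each day, at different levels. The first was named for its day 4 call and the second for lack of overlap on day 8, so these separations partly followed from the choice. At 100 mGy/h they averaged 42.8 and 12.4 CPM on day 8, against 40.0 and 9.18 CPM in controls. On day 4 they averaged 68.0 and 6.57 CPM at 100 mGy/h, against 21.9 and 1.97 CPM in controls. XM_032939783.1 (LOC116932065) had 15.2, 19.95, 14.7 and 17.1 CPM at 40 mGy/h on day 8, against 7.28, 7.97, 10.9 and 10.6 CPM in the controls. On day 4 it had 5.66, 4.05, 5.07 and 6.46 CPM at 40 mGy/h, against 2.22, 1.18, 2.63 and 1.85 CPM in the controls. Log2 fold changes on day 4 were 1.27 for XM_032939781.1 and 1.42 for XM_032939783.1 (edgeR adjusted p = 0.00129 and 0.0110), and on day 8 they were 0.59 and 0.87, not called by edgeR. DESeq2 called XM_032939783.1 on day 8 (adjusted p = 0.0345).

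The difference between days in the effect of 40 mGy/h was tested next. The interaction of dose rate and day, fitted by edgeR to the 16 libraries at 40 and 0 mGy/h of both days, was called for 0 of 9336 transcripts (0%), with 481 unadjusted p-values under 0.05 and a smallest adjusted p of 0.306. DESeq2 called 13, and edgeR called 12 when replicate 4 of the day 4 controls was left out. For XM_032940429.1 the day 8 effect minus the day 4 effect was 0.60 on the log2 scale (SE 0.12, edgeR adjusted p = 0.314).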

How the data were processed

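Libraries of whole female Daphnia magna were sequenced with paired reads of 100 bp on a BGISEQ platform, per the labels' protocols, and HISAT is named in the submitters' processing notes. Which program counted the reads, on which build, with what use of strand or of reads shared by several records was not given in the sources used here, so overlapping and near-identical records are uncertain. The authors deposited raw whole-number counts per RefSeq transcript record, in a table for each day, and every column was matched to a sample by its code in the labels. No pair of the 8 libraries had near-identical counts (chi-square per degree of freedom at least 24.3 for transcripts summing to 20 or more counts).

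The main test used edgeR 4.0.16 (R 4.3.3): filterByExpr on dose-rate groups, TMM scaling, glmQLFit and glmQLFTest on the 28 libraries of a day, 2-sided, with Benjamini-Hochberg adjustment over all tested. Standard errors were obtained from the log2 fold change and the root of its F statistic. Principal components used log2 CPM with a prior count of 2. DESeq2 1.42.0, sva 3.50.0 (4 surrogate variables) and limma 3.58.1 served as alternatives. The scripts were tested on simulated counts. Intervals cover the spread between libraries.

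Named transcripts were every call, the 10 largest rises and 10 largest falls among transcripts with a mean of at least 50 counts, an unadjusted p under 0.05 and no overlap of libraries, the 4 called on day 4 with the smallest p, and the 5 most abundant. The comparison, lists and rules were chosen with earlier results of these data known. The planned pathway lists needed descriptions and were not built.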

Additional observations from a re-analysis of the deposited data

Results flagged for a closer look

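In groups of 4 libraries, a value whose gap to the nearest other library exceeded Dixon's 95% critical share of the range was singled out. Among 62 groups examined, 3 exceeded it, where 3.1 would be expected by chance. XM_032929158.1, the second most abundant transcript, had 9038 CPM in replicate 2 at 40 mGy/h, far below its 3 group mates. XM_032923570.1 had 19.5 CPM in control replicate 3, below 3 controls that were nearly equal. The first component score of control replicate 2 was 14.3, apart from the other 3 controls. The score of replicate 2 at 40 mGy/h did not pass this criterion.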

How the results depend on the processing

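Over all alternatives run, the 23 named transcripts other than the 5 most abundant kept the sign of their day 8 log2 fold change, and XM_032940429.1 was called in each. The number of day 8 calls at 40 against 0 mGy/h was 3 with RLE size factors, without the count filter and with a mean of at least 50 counts, 31 with DESeq2, 5 with surrogate variables and 1 with only the 2 compared groups. Limma with sample weights, chosen after seeing the data, called 21, with the lowest weight of the 28 libraries (0.281) on replicate 2 at 40 mGy/h. Both DESeq2 and limma called 12 transcripts that edgeR did not. With only the 2 groups in the fit, the log2 fold changes of XM_032941777.1 (0.85) and XM_032942389.1 (0.89) were past the threshold no longer, with fewer samples to estimate the spread.

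Leaving out 1 library gave 1 to 4 day 8 calls, with 1 call without replicate 2 at 40 mGy/h, control replicate 1 or control replicate 3. The log2 fold change of XM_032941777.1 ran from 0.77 to 0.95, and its call was lost without replicate 1 (edgeR adjusted p = 0.0653), 2 (0.0508) or 4 (0.0612) at 40 mGy/h and without control replicate 1 (0.0915) or 3 (0.106). That of XM_032942389.1 ran from 0.81 to 0.99, and its call was lost without replicate 2 (edgeR adjusted p = 0.125) or 3 (0.1001) at 40 mGy/h and without control replicate 1 (0.0710), 2 (0.0682) or 3 (0.106). The difference in first component score, 40 minus 0 mGy/h, was -4.42 and ran from -26.0 to 6.004. The difference in the coefficient of variation, 40 minus 0 mGy/h, was 0.0811 and ran from -0.0518, without replicate 2 at 40 mGy/h, to 0.118. The day 4 count of 27 was 92 with DESeq2 and 14 to 29 with a library left out, with 16 without replicate 3 at 40 mGy/h, 14 without control replicate 2 and 16 without control replicate 4. The interaction count of 0 was 13 with DESeq2 and 0 to 12 with a library left out. Without replicate 2 at 40 mGy/h, chosen after seeing the data, counts against 0.4, 1 and 100 mGy/h were 36, 409 and 0. The causes of these changes were not tested.

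Same-numbered libraries at 40 and 0 mGy/h did not deviate together (r = 0.135, 0.284, -0.288 and -0.0197 for replicates 1 to 4). Of the 4 exposed libraries, 1 correlated best with its own number. No pairing by number was seen, but so few correlations cannot exclude it. With the replicate number as a block edgeR made 2 calls on day 8, and XM_032942389.1 had a log2 fold change of 0.90 (adjusted p = 0.0582). The block gave 16 calls against 0.4 mGy/h and 31 against 1 mGy/h.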
